A study of Arabidopsis thaliana with 9 samples.

Results

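The genes described here are the 42 nuclear genes of Arabidopsis thaliana that encode the light-harvesting antenna proteins and the nuclear-encoded subunits of photosystems I and II. They were taken from a list of loci, and they are 42 of the 32399 nuclear genes counted. The list holds 14 genes of the photosystem II antenna (LHCB), 6 of the photosystem I antenna (LHCA), 12 subunit genes of photosystem I (PSA) and 10 subunit genes of photosystem II (PSB). The series asks how the loss of the plant RNA polymerases Pol IV and Pol V affects transcription by Pol II. For nascent RNA, nuclear run-on (NRO) was used, an assay where engaged polymerases extend their transcripts with biotin-UTP and the labelled RNA is captured on streptavidin beads. Nuclear RNA at steady state was measured beside it and is called RNA here. All plants were 3 weeks old, were kept at 22 °C under a 16 h day and an 8 h night, and gave leaf tissue. The genotypes were Col-0, which is the wild-type accession, nrpd1-3, a mutant of the largest subunit of Pol IV, and nrpe1-11, a mutant of the largest subunit of Pol V. Each assay and genotype had 1 library, so the 6 libraries have no replicate check.

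Light-harvesting proteins bind chlorophyll and carotenoids in the thylakoid membrane and pass absorbed energy to the reaction centres. The LHCB1, LHCB2 and LHCB3 proteins form the trimeric antenna of photosystem II, while LHCB4, LHCB5 and LHCB6 are monomeric antenna proteins that link the trimers to its core. The LHCA proteins form a belt around photosystem I. The reaction-centre proteins themselves are encoded in the chloroplast, and the nuclear subunits complete each complex. In leaves these nuclear genes are among the strongly transcribed genes, and light, the circadian clock and signals from the chloroplast regulate them.

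Gene counts summed to between 2687149 and 8185846 in the NRO libraries, where Col-0 was the shallowest, and to between 386011 and 709905 in the RNA libraries. The share of reads that aligned more than once, and were assigned to no gene, was 79.8% in NRO of Col-0 against 48.4% and 47.8% in NRO of the mutants, and it lay between 90.3% and 92.7% in RNA. The targeted genes did not follow their labels in a simple way. NRPD1, which encodes the Pol IV subunit, had 9 counts in NRO of Col-0, 94 in the library labelled nrpd1-3 and 19 in the library labelled nrpe1-11, or 4.48, 10.7 and 2.04 CPM (counts relative to library size, with library sizes scaled by the trimmed mean of M values, TMM). In RNA it had 0, 8 and 3 counts. For NRPE1, which encodes the Pol V subunit, the NRO counts were 24, 81 and 82 and the RNA counts 6, 6 and 8. Counts per gene do not show which part of a gene was transcribed, so both mutants are called below by the labels of their libraries. An exchange of the mutant labels was not tested, and it would turn every direction between the mutants given below. The 8 fixed markers of photosynthetic cells, such as the Rubisco small subunit genes, had counts in all 6 libraries. Their summed level in Col-0, nrpd1-3 and nrpe1-11 was 2325, 927 and 1435 CPM in NRO, and 3083, 2271 and 3995 CPM in RNA. Markers of the epidermis summed to between 114 and 212 CPM, those of the vasculature to between 41.8 and 53.6 CPM, those of guard cells to between 5.55 and 12.0 CPM and those of roots to between 11.1 and 40.6 CPM. The root marker EXP7 was at 0 in all 6 libraries. In whole tissue, fewer cells of a type and less RNA per cell cannot be told apart.

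Together the 42 genes took 1.14% of all gene counts in NRO of Col-0 (exact 95% interval 1.13 to 1.15%), 1.47% (1.46 to 1.48%) in the library labelled nrpd1-3 and 2.06% (2.05 to 2.07%) in the library labelled nrpe1-11. In RNA they took 1.01% (0.989 to 1.04%), 1.32% (1.28 to 1.35%) and 1.72% (1.69 to 1.76%). Both assays therefore had the same order of genotypes, with nrpe1-11 highest, and no 2 of the intervals within an assay overlapped. These intervals, like all others here, cover counting error only. Antenna genes held most of the counts, at 81.2%, 81.7% and 81.7% of the summed counts of the 42 genes in NRO and 82.8%, 77.5% and 77.7% in RNA. The lower antenna share in RNA of both mutants lay in the photosystem II antenna, at 66.7% in Col-0, 60.8% in nrpd1-3 and 60.5% in nrpe1-11. The photosystem I antenna held 16.1%, 16.7% and 17.2%. Subunit genes of both photosystems had higher shares in RNA of the mutants. Photosystem I subunits held 7.91%, 10.1% and 9.44%, and photosystem II subunits 9.29%, 12.4% and 12.8%. In NRO the share of photosystem II subunits was 9.70%, 8.56% and 8.76%, so there the mutants lay below Col-0. Photosystem I subunits held 9.10%, 9.73% and 9.49% in NRO.

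**Figure D1:**
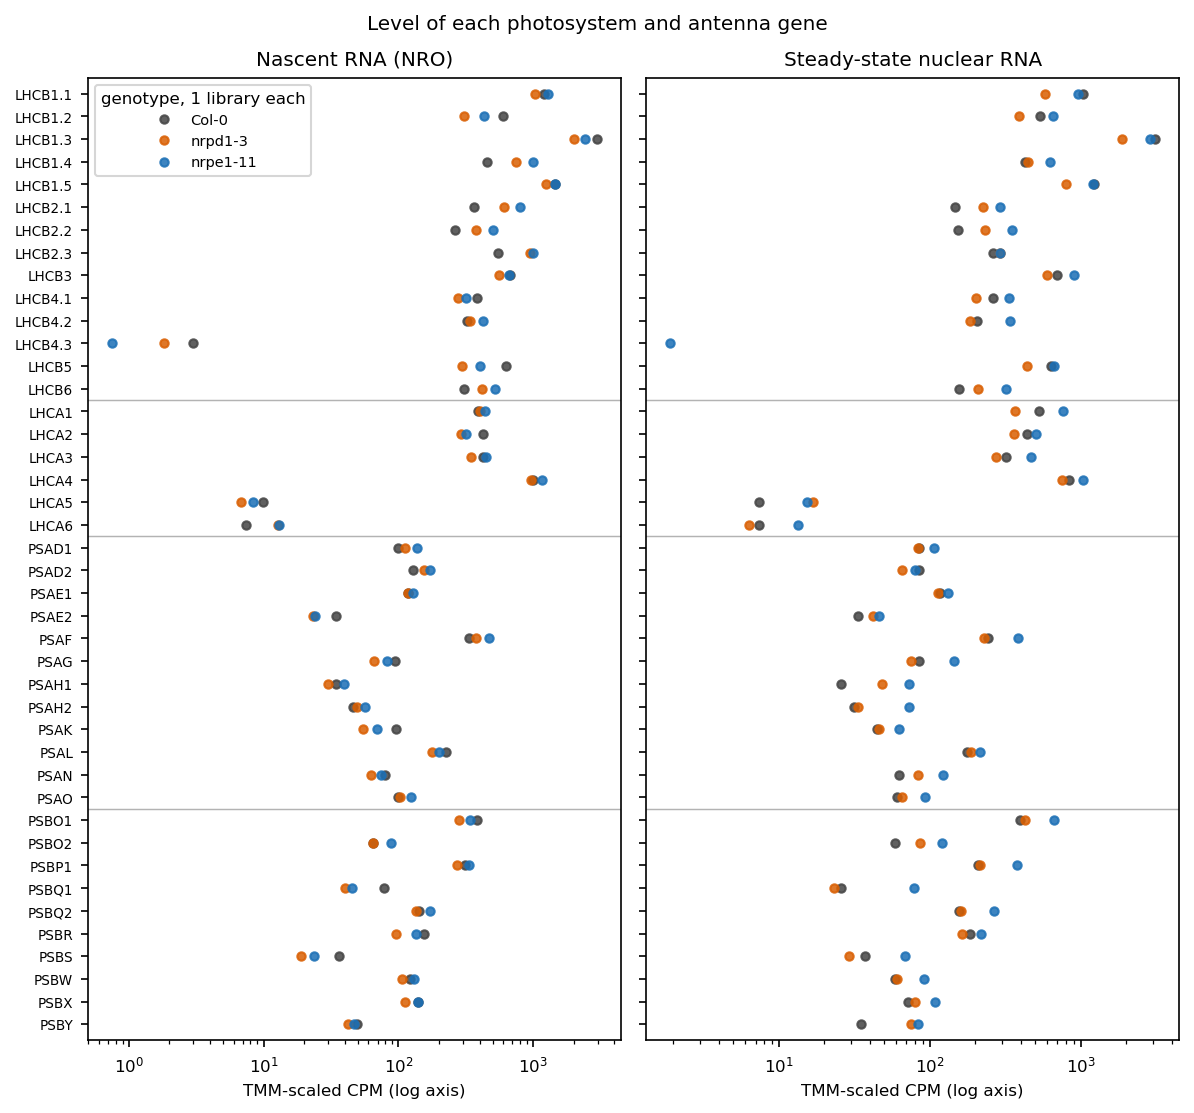
Level of each gene in TMM-scaled CPM on a log axis, in NRO (left) and RNA (right), with 1 point per genotype and 1 library per point. Gene families are separated by grey lines, values of 0 are not drawn, and LHCB1.3 is the highest gene in all 6 libraries.

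To compare genes with each other, levels were divided by the length of the annotated gene. LHCB1.3 had the highest level per kb in all 6 libraries, at 2397 CPM per kb in NRO and 2523 CPM per kb in RNA of Col-0. LHCB1.5 was the second in all 6 libraries, with 1394 and 1174 CPM per kb in Col-0. Subunit genes lay lower: in NRO of Col-0 they ranged from 11.3 CPM per kb for PSBS, a sensor of excess light, to 228 CPM per kb for PSAF, which docks the electron donor plastocyanin. The 3 genes under the count filter in RNA were also among the 4 lowest genes per kb in every library. LHCB4.3 (AT2G40100), a seldom expressed LHCB4 copy, had NRO counts of 6, 16 and 7 (in the order Col-0, nrpd1-3, nrpe1-11, used for all sets of 3 values below) and RNA counts of 0, 0 and 1, and it was under the filter of 20 counts in both assays. LHCA5 (AT1G45474) had NRO counts of 20, 60 and 78 and RNA counts of 4, 8 and 8. LHCA6 (AT1G19150) had NRO counts of 15, 112 and 122 and RNA counts of 4, 3 and 7. Both are known to join photosystem I to the chloroplast NDH complex, and at these counts no difference in RNA could be read for them. Of the 42 genes, 41 passed the filter in NRO and 39 in RNA, and 41 entered the model described further on.

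Between the mutants the genes lay to 1 side. Every gene that passed the filter had a higher TMM-scaled level in the library labelled nrpe1-11 than in the library labelled nrpd1-3, 41 of 41 in NRO and 39 of 39 in RNA. Libraries were compared within an assay by the log2 ratio of TMM-scaled CPM with an exact 95% counting interval, and there is no test because each group had 1 library. In NRO the interval lay above 0 for 35 of 41 genes (85.4%) and below 0 for 0, where 20.3% and 23.1% of all 16083 genes kept did so. In RNA it lay above 0 for 24 of 39 genes (61.5%) and below 0 for 0, where 11.1% and 11.7% of all 3297 genes kept did so. The median log2 ratio of the photosynthesis genes was 0.29 in NRO and 0.57 in RNA, against 0.00 and 0.01 over all genes. The counts pooled over the 42 genes gave a log2 ratio of 0.28 (0.27 to 0.29) in NRO and 0.61 (0.55 to 0.66) in RNA. These shifts were small for single genes: 0 of 41 genes in NRO met a size rule of a 2-fold difference with an interval excluding 1, against 3.46% of all genes higher and 4.80% lower. In RNA 4 of 39 genes met it, all higher, against 4.82% of all genes higher and 5.31% lower. With libraries scaled by their totals instead, the NRO count by interval was 38 higher and 0 lower and the RNA count 22 higher and 0 lower. The share of all genes by interval is not given for that scaling. It put the median log2 ratio of all genes at 0.21 in NRO and -0.19 in RNA, and that of the photosynthesis genes at 0.49 and 0.36. On that scale all 41 genes were still higher in NRO, but 35 of 39 in RNA, and LHCB2.3, PSAE2, PSAL and PSBY were lower there with intervals that included 0. Other genes shifted the same way under TMM. The 8 markers of photosynthetic cells had median log2 ratios of 0.62 in NRO and 0.82 in RNA, with intervals above 0 for 7 and 6 of them and below 0 for 0. Of 20 assembly and repair genes, 12 had intervals above 0 in NRO and 0 below. In RNA 2 of 12 assembly and repair genes measured had intervals above 0 (16.7%) and 0 below, near the 11.1% of all genes above 0. Their median log2 ratio there was 0.56. The part of these cell markers in the shift of the 42 genes was not tested.

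**Figure D2:**
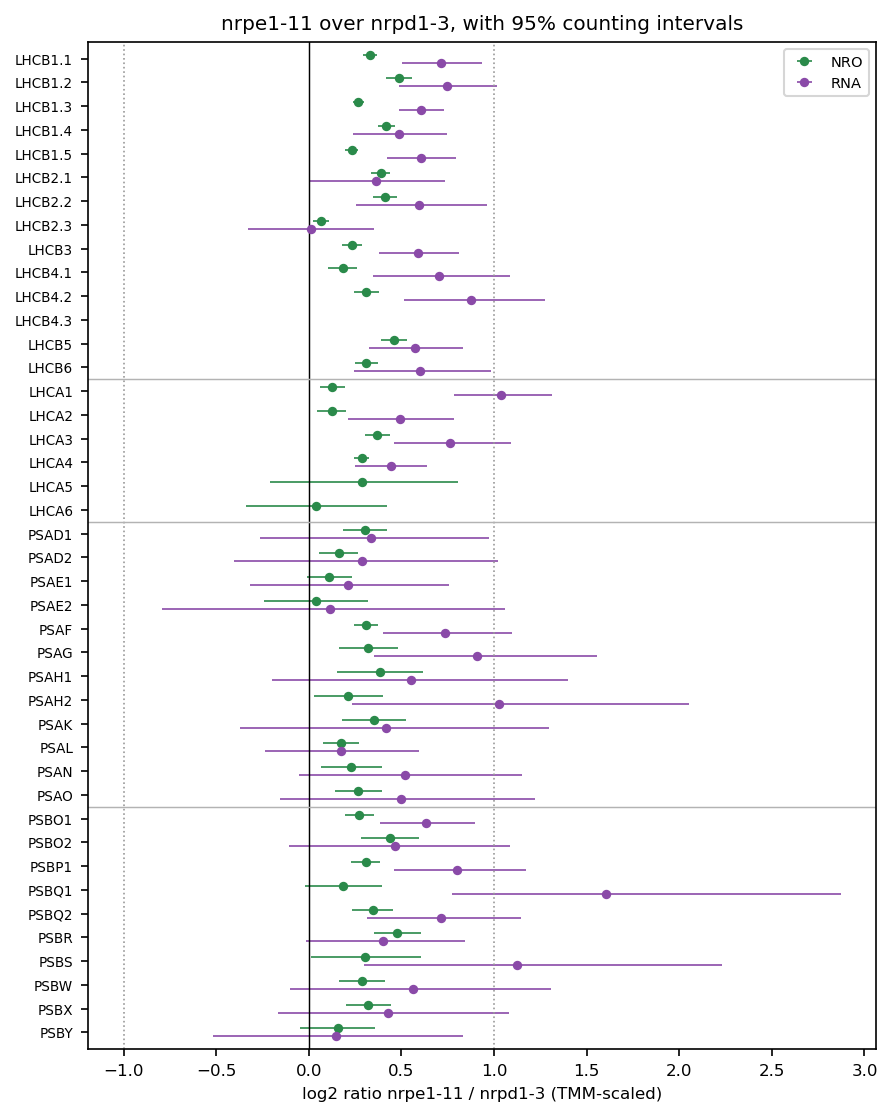
Log2 ratio of nrpe1-11 to nrpd1-3 (TMM-scaled) for each gene in NRO (green) and RNA (purple), with exact 95% counting intervals and 1 library per group. Points lie to the right of 0 for 41 of 41 genes in NRO and 39 of 39 in RNA, and dotted lines mark a 2-fold difference.

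The 4 genes that met the size rule in RNA between the mutants belong to both photosystems. LHCA1 (AT3G54890), an antenna protein of photosystem I, stood at 529, 367 and 757 CPM in RNA, and its log2 ratio between the mutants was 1.04 (0.79 to 1.31). PSAH2 (AT1G52230), a photosystem I subunit at the docking site of mobile antenna, stood at 31.4, 33.6 and 72.5 CPM, with a log2 ratio of 1.03 (0.23 to 2.05). PSBQ1 (AT4G21280), an extrinsic protein of the oxygen-evolving complex, stood at 25.9, 23.1 and 78.2 CPM, with a log2 ratio of 1.60 (0.78 to 2.87). PSBS (AT1G44575) stood at 37.0, 29.4 and 68.7 CPM, with a log2 ratio of 1.12 (0.30 to 2.23). In all 4 genes nrpe1-11 was the highest of the 3 RNA libraries, and only LHCA1 rested on more than 50 counts in each RNA library. In NRO the same ratios were 0.13 for LHCA1, 0.21 for PSAH2, 0.19 for PSBQ1 and 0.30 for PSBS. At the other end LHCB2.3 hardly differed between the mutants, with log2 ratios of 0.07 (0.02 to 0.11) in NRO and 0.01 (-0.33 to 0.35) in RNA.

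Against Col-0 the genes split. Both mutant comparisons share the Col-0 library, so their values are given side by side and not as support for each other. In NRO of the library labelled nrpd1-3 the interval lay above 0 for 7 of 41 genes (17.1%) and below 0 for 20 (48.8%), where 18.0% and 18.7% of all genes did so. In NRO of the library labelled nrpe1-11 it lay above 0 for 16 genes (39.0%) and below 0 for 12 (29.3%), where 20.6% and 22.4% of all genes did so. In RNA of nrpd1-3 the counts were 3 of 39 above (7.69%) and 7 below (17.9%), against 12.4% and 20.4% of all genes. In RNA of nrpe1-11 they were 23 of 39 above (59.0%) and 1 below (2.56%), against 21.4% and 26.6%. Only the last comparison had a share of higher genes far above that of all genes while the lower genes were few.

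Few of the differences from Col-0 were large. By the size rule, NRO of nrpd1-3 had 0 genes higher and 1 lower, against 9.23% and 6.90% of all genes, and NRO of nrpe1-11 had 2 higher and 0 lower, against 12.0% and 11.0%. RNA of nrpd1-3 had 1 higher and 0 lower, against 7.25% and 11.8%, and RNA of nrpe1-11 had 6 higher (15.4%) and 0 lower, against 14.1% and 19.0%. The share of higher genes in RNA of nrpe1-11 was thus near that of all genes. The median log2 ratio of the genes was -0.22 and 0.09 in NRO of nrpd1-3 and nrpe1-11 and -0.02 and 0.54 in RNA, against 0.03, 0.04, -0.02 and 0.04 over all genes.

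These directions depended on how libraries were scaled. Scaling by library totals put the median log2 ratio of all genes at 0.53 and 0.73 in NRO and at 0.63 and 0.49 in RNA of nrpd1-3 and nrpe1-11. The interval then lay above 0 for 25 genes and below 0 for 4 in NRO of nrpd1-3, and the 4 were LHCB1.2, LHCB5, PSAK and PSBQ1. It lay above 0 for 37 and below 0 for 0 in NRO of nrpe1-11, for 25 and 0 in RNA of nrpd1-3, and for 37 and 0 in RNA of nrpe1-11. As all genes shifted up on that scale and their share by interval is not given, these counts are not set against a background. The median log2 ratio of the photosynthesis genes was then 0.30 and 0.82 in NRO and 0.65 and 1.02 in RNA of nrpd1-3 and nrpe1-11. Pooled over the 42 genes, the log2 ratio to Col-0 was -0.16 in NRO and -0.32 in RNA of nrpd1-3 under TMM, and 0.37 and 0.38 under library totals. For nrpe1-11 it was 0.12 and 0.29 under TMM and 0.85 and 0.77 under library totals. Every direction against Col-0 given below is therefore relative to the TMM scale, and the shares within gene families, which need no scaling, are given beside it.

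**Figure D3:**
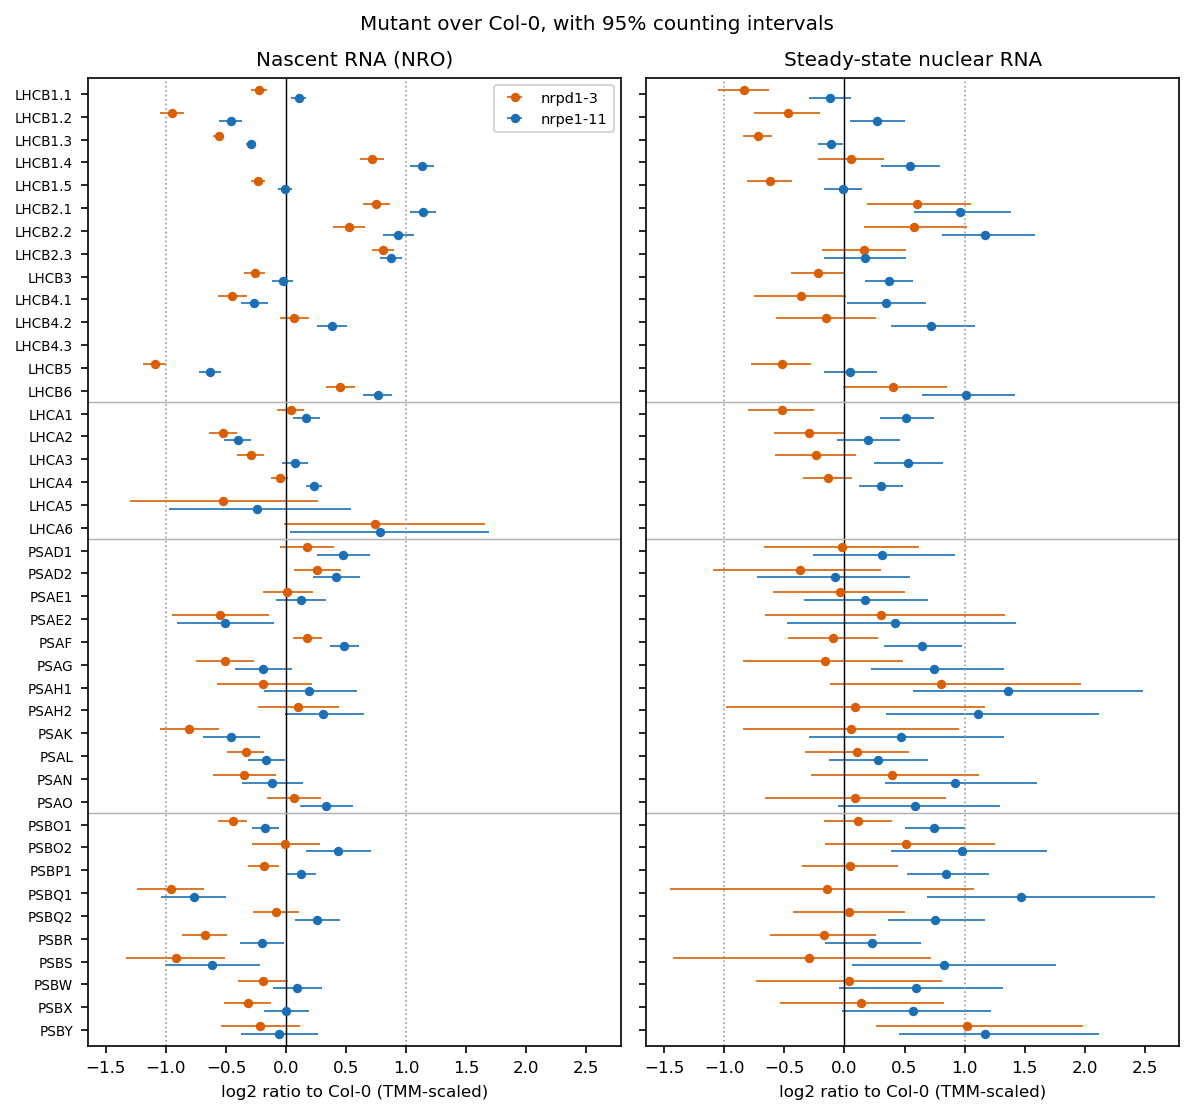
Log2 ratio to Col-0 (TMM-scaled) of each gene in nrpd1-3 (orange) and nrpe1-11 (blue), in NRO (left) and RNA (right), with exact 95% counting intervals, 1 library per group and dotted lines at a 2-fold difference. In NRO LHCB1.4, LHCB2.1, LHCB2.2, LHCB2.3 and LHCB6 lie right of 0 in both mutants while LHCB1.2, LHCB5, PSAK, PSBQ1 and PSBS lie left of it.

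The LHCB1 genes encode the most abundant antenna protein of photosystem II and differed among themselves. LHCB1.1, LHCB1.2 and LHCB1.3 are neighbours on their chromosome, as are LHCB1.4 and LHCB1.5. LHCB1.4 (AT2G34430) stood at 454, 745 and 995 CPM in NRO and at 429, 447 and 628 CPM in RNA. Both mutants were above Col-0 in NRO, with log2 ratios of 0.72 (0.62 to 0.82) and 1.13 (1.03 to 1.23), and the second met the size rule. LHCB1.2 (AT1G29910) stood at 595, 308 and 432 CPM in NRO and at 540, 388 and 653 CPM in RNA. There both mutants were below Col-0 in NRO, with log2 ratios of -0.95 (-1.05 to -0.85) and -0.46 (-0.56 to -0.37). LHCB1.3 (AT1G29930) stood at 2948, 1997 and 2402 CPM in NRO and at 3104, 1881 and 2864 CPM in RNA, lower in nrpd1-3 than in Col-0 in both assays. LHCB1.1 (AT1G29920) stood at 1197, 1023 and 1287 CPM in NRO and at 1038, 581 and 956 CPM in RNA. LHCB1.5 (AT2G34420) stood at 1457, 1237 and 1451 CPM in NRO and at 1226, 797 and 1214 CPM in RNA. For these last 2 genes nrpd1-3 was the lowest library in both assays, and nrpe1-11 lay close to Col-0.

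Shares within the LHCB1 family gave the same split without any scaling. LHCB1.4 held 6.82% of the LHCB1 counts in NRO of Col-0 (exact interval 6.40 to 7.26%), 14.0% in nrpd1-3 (13.7 to 14.4%) and 15.2% in nrpe1-11 (14.9 to 15.4%). In RNA it held 6.77% (5.95 to 7.67%), 10.9% (9.56 to 12.4%) and 9.94% (8.94 to 11.0%). The odds of a family read coming from LHCB1.4 were 2.23 and 2.44 times those of Col-0 in NRO and 1.69 and 1.52 times in RNA, for nrpd1-3 and nrpe1-11. LHCB1.3 held 44.3%, 37.6% and 36.6% of the family in NRO, lower in both mutants. LHCB1.2 held 8.95%, 5.80% and 6.57% in NRO, with odds of 0.627 times Col-0 in nrpd1-3, but 8.52%, 9.48% and 10.3% in RNA. So the LHCB1.4 share was above Col-0 in all 4 mutant libraries, while the LHCB1.2 share was below it in NRO and not in RNA. The LHCB1 copies are near-identical, and reads that aligned to more than 1 of them were not assigned. These shares therefore describe the part of the reads that could be placed. The share of reads aligned more than once, given above, is over all reads of a library and differed between the libraries. For LHCB1 alone it is not given, and its part in these shares was not tested. Reads of genes that overlap a neighbour, among them LHCB1.3, LHCB1.5, LHCB2.3, LHCB3, LHCB4.2 and LHCB6 of the photosystem II antenna, could also be split, since the strand setting of the counting is not given in the sources used here.

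**Figure D4:**
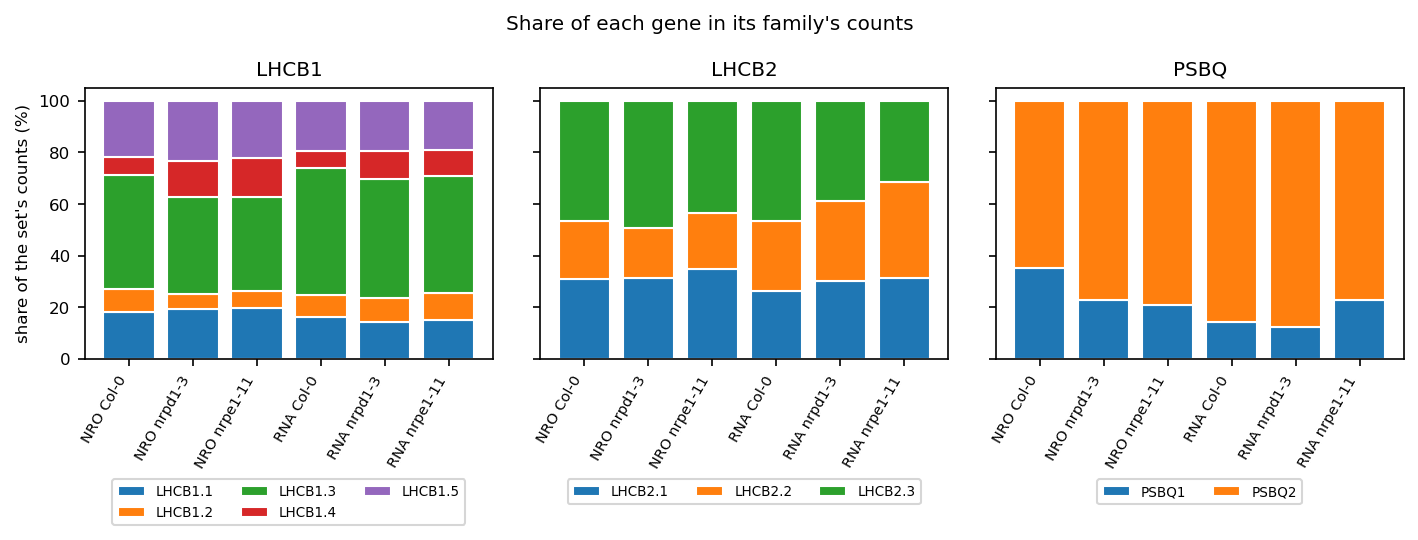
Share of each gene in the summed counts of the LHCB1, LHCB2 and PSBQ families (%), with 1 stacked bar per library. LHCB1.4 (red) holds 6.82% in NRO of Col-0 and 14.0% and 15.2% in NRO of the mutants, and PSBQ1 (blue, right panel) holds 35.1%, 22.8% and 20.9%.

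The LHCB2 genes, whose proteins are phosphorylated when antenna moves between the photosystems, were above Col-0 in NRO of both mutants. LHCB2.1 (AT2G05100) stood at 361, 608 and 795 CPM in NRO and at 148, 226 and 292 CPM in RNA. LHCB2.2 (AT2G05070), its neighbour on the chromosome, stood at 262, 377 and 501 CPM in NRO and at 154, 231 and 351 CPM in RNA. Both genes had the order Col-0, nrpd1-3, nrpe1-11 from low to high in each assay. The size rule was met by LHCB2.1 in NRO of nrpe1-11, with a log2 ratio of 1.14 (1.03 to 1.25), and by LHCB2.2 in RNA of nrpe1-11, with 1.17 (0.81 to 1.59). LHCB2.3 (AT3G27690), on another chromosome, stood at 545, 953 and 999 CPM in NRO but at 261, 292 and 294 CPM in RNA. Its log2 ratios to Col-0 in NRO were 0.81 (0.72 to 0.90) and 0.87 (0.78 to 0.97), and in RNA both intervals included 0. Within the family LHCB2.3 accordingly held 46.6%, 49.2% and 43.5% of the counts in NRO, and 46.4%, 38.9% and 31.4% in RNA. The odds of a LHCB2 read in RNA of nrpe1-11 coming from LHCB2.3 were 0.529 times those of Col-0 (0.389 to 0.718), and for LHCB2.2 they were 1.60 times (1.16 to 2.21).

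Of the other photosystem II antenna genes, LHCB5 (AT4G10340) was the gene furthest below Col-0 in NRO. It stood at 629, 294 and 405 CPM in NRO and at 638, 443 and 660 CPM in RNA. Its log2 ratio in NRO of nrpd1-3, -1.09 (-1.19 to -0.996), met the size rule, and that of nrpe1-11 was -0.63 (-0.73 to -0.54). In RNA nrpd1-3 was still the lowest library, while nrpe1-11 and Col-0 were close. LHCB6 went the other way, at 305, 418 and 518 CPM in NRO and 157, 210 and 321 CPM in RNA, and its log2 ratio in RNA of nrpe1-11 was 1.01 (0.64 to 1.42). LHCB3 (AT5G54270), the third trimer protein, stood at 672, 560 and 659 CPM in NRO and at 697, 598 and 902 CPM in RNA. The LHCB4 copies separated in NRO, where LHCB4.1 (AT5G01530) stood at 381, 279 and 317 CPM and LHCB4.2 (AT3G08940) at 324, 340 and 422 CPM. LHCB4.1 held 53.8%, 44.9% and 42.8% of the LHCB4 counts in NRO, and its odds in nrpe1-11 were 0.644 times those of Col-0 (0.573 to 0.724). In RNA LHCB4.1 stood at 263, 203 and 334 CPM and LHCB4.2 at 205, 185 and 342 CPM, and the intervals of their odds included 1. LHCB4.3 had too few counts for its share, 0.422%, 0.292% and 0.102% in NRO, to be read further.

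By the size rule 0 photosystem I antenna genes differed from Col-0. In NRO of nrpd1-3 the interval lay below 0 for 2 of the 6 genes, LHCA2 and LHCA3, and above 0 for 0. In NRO of nrpe1-11 it lay above 0 for LHCA1, LHCA4 and LHCA6 and below 0 for LHCA2. LHCA1 stood at 391, 402 and 439 CPM in NRO, and LHCA4 (AT3G47470), the highest LHCA gene, stood at 994, 959 and 1168 CPM in NRO and at 834, 757 and 1030 CPM in RNA. LHCA2 (AT3G61470) stood at 421, 293 and 319 CPM in NRO and at 440, 359 and 506 CPM in RNA. LHCA3 (AT1G61520) stood at 424, 346 and 447 CPM in NRO and at 322, 273 and 466 CPM in RNA. In RNA of nrpe1-11 the interval lay above 0 for 3 of the 4 genes measured, with log2 ratios of 0.51 for LHCA1, 0.53 for LHCA3 and 0.30 for LHCA4. In RNA of nrpd1-3 it lay below 0 for LHCA1 at -0.52 and LHCA2 at -0.29. Among the 4 LHCA genes measured in RNA, nrpd1-3 was the lowest and nrpe1-11 the highest library without exception.

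Among the 12 photosystem I subunit genes, PSAF and PSAD2 had intervals above 0 in NRO of nrpd1-3, and 5 genes had intervals below 0. PSAF (AT1G31330) stood at 334, 378 and 468 CPM in NRO and at 244, 229 and 384 CPM in RNA. PSAD1 and PSAD2 encode the subunit that docks ferredoxin on the stromal side, and PSAD2 stood at 129, 154 and 173 CPM in NRO and at 85.1, 65.0 and 80.1 CPM in RNA. PSAK (AT1G30380), a membrane subunit next to the antenna, stood at 95.5, 54.5 and 69.5 CPM in NRO, below Col-0 in both mutants, with log2 ratios of -0.81 (-1.05 to -0.56) and -0.46 (-0.69 to -0.22), and stood at 44.4, 46.1 and 63.0 CPM in RNA. PSAH1 (AT3G16140) stood at 34.3, 30.1 and 39.3 CPM in NRO and at 25.9, 48.2 and 72.5 CPM in RNA. PSAH2 stood at 45.8, 48.9 and 56.8 CPM in NRO. Both PSAH genes met the size rule in RNA of nrpe1-11, with log2 ratios of 1.36 (0.57 to 2.48) and 1.12 (0.35 to 2.12), on 14 and 17 counts in Col-0 and 38 each in nrpe1-11. For PSAE, which also docks ferredoxin, PSAE1 stood at 117, 118 and 127 CPM in NRO and PSAE2 at 34.3, 23.4 and 24.0 CPM. PSAE1 accordingly held 77.3%, 83.4% and 84.1% of the PSAE counts in NRO, with odds in nrpe1-11 of 1.55 times those of Col-0 (1.13 to 2.12). In RNA PSAE1 stood at 117, 113 and 132 CPM and PSAE2 at 33.3, 41.9 and 45.8 CPM, and the intervals of their odds included 1. The remaining genes PSAD1, PSAG, PSAL, PSAN and PSAO had log2 ratios to Col-0 between -0.51 and 0.47 in NRO and between -0.16 and 0.92 in RNA.

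The photosystem II subunit genes were the family with the most different picture in the assays. In NRO of nrpd1-3 the interval lay below 0 for 6 of 10 genes and above 0 for 0, and in NRO of nrpe1-11 it lay below 0 for 4 and above 0 for 2. In RNA of nrpe1-11 it lay above 0 for 7 of 10 and below 0 for 0, with a family median log2 ratio of 0.79. PSBO, PSBP and PSBQ shield the manganese cluster of the oxygen-evolving complex. PSBO1 (AT5G66570) stood at 383, 281 and 339 CPM in NRO and at 396, 428 and 666 CPM in RNA. PSBO2 (AT3G50820) stood at 65.2, 64.9 and 88.0 CPM in NRO and at 59.2, 86.0 and 120.2 CPM in RNA, and the odds of a PSBO read in NRO coming from PSBO2 were 1.52 times those of Col-0 in nrpe1-11 (1.24 to 1.88). PSBP1 (AT1G06680) stood at 309, 272 and 336 CPM in NRO and at 207, 214 and 376 CPM in RNA. In NRO PSBQ1 stood at 77.6, 39.8 and 45.4 CPM, so both mutants were below Col-0, and the log2 ratios were -0.96 (-1.24 to -0.68) and -0.77 (-1.04 to -0.50). In RNA it was higher in nrpe1-11 than in Col-0 by the size rule, with a log2 ratio of 1.47 (0.69 to 2.58) on 14 and 41 counts. PSBQ2 (AT4G05180) stood at 143, 135 and 172 CPM in NRO and at 157, 161 and 267 CPM in RNA. The share of PSBQ1 in the PSBQ counts was 35.1%, 22.8% and 20.9% in NRO, with odds of 0.545 and 0.489 times those of Col-0, and 14.1%, 12.5% and 22.7% in RNA, where the intervals of the odds included 1.

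PSBR, PSBS, PSBW, PSBX and PSBY are small or accessory proteins of photosystem II. PSBS stood at 36.3, 19.1 and 23.6 CPM in NRO, below Col-0 in both mutants, with log2 ratios of -0.92 (-1.33 to -0.51) and -0.61 (-1.01 to -0.22). PSBR (AT1G79040) stood at 155, 96.5 and 134 CPM in NRO and at 185, 164 and 218 CPM in RNA. In both genes nrpd1-3 was the lowest library of each assay. PSBY (AT1G67740) met the size rule in RNA of both mutants, at 35.1, 75.5 and 84.0 CPM from 19, 36 and 44 counts, with log2 ratios of 1.02 (0.26 to 1.99) and 1.17 (0.45 to 2.12). In NRO it stood at 49.2, 42.3 and 47.2 CPM, and both intervals included 0. PSBW and PSBX had log2 ratios to Col-0 between -0.32 and 0.09 in NRO and between 0.04 and 0.60 in RNA.

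Assay and genotype effects were then estimated together, as additive terms, from the 6 libraries by edgeR's quasi-likelihood method, and adjusted p-values are Benjamini-Hochberg values over all 14530 genes tested. Its spread is the variation of the genotype response between assays, not the spread between plants. The prior degrees of freedom were infinite for every gene, so each was tested against a spread shared across genes, not its own. In limma with each gene's own spread, 0 of all 14530 genes were called in every contrast. In nrpe1-11 against Col-0, LHCB2.1 and LHCB2.2 rose, by log2 fold changes of 0.94 ± 0.349 (SE, adjusted p = 0.0411) and 0.92 ± 0.333 (adjusted p = 0.0332). The model fits 1 genotype effect to both assays, so a difference between assays was not tested. These were 2 of 41 genes higher and 0 lower, against 6.94% and 11.5% of all genes. The next highest was LHCB6 (AT1G15820) at 0.76 ± 0.334 (adjusted p = 0.101), and the lowest were LHCB5 at -0.44, LHCB1.3 at -0.34 and PSAE2 at -0.32. In nrpd1-3 against Col-0, 0 of 41 genes were called by edgeR, against 3.89% of all genes called higher and 5.34% lower. At its unadjusted p under 0.05, 0 were higher and 5 lower, where 1445 of all 14530 genes were higher and 1631 lower. DESeq2 also called 0 in either direction, against 0.819% of all genes higher and 1.53% lower. The highest were LHCB2.1 at 0.63, LHCA6 at 0.58 and LHCB2.2 at 0.49, and the lowest were LHCB5 at -0.89 ± 0.354 (adjusted p = 0.0953), LHCB1.2 at -0.79 and PSBQ1 at -0.77. Between the mutants, a contrast added after the data were seen, edgeR called 0 of 41, against 0.461% of all genes higher and 1.67% lower. DESeq2 also called 0, against 0.0206% and 0.0964% of all genes, and gave no adjusted p for 8 of the 41. By edgeR, PSBQ1 was the only gene at an unadjusted p under 0.05, where 539 of all 14530 genes were higher and 1194 lower. The median fitted log2 fold change there was 0.36, against -0.04 over all genes. LHCB2.1 and LHCB2.2 lost their calls without any 1 of the 4 mutant libraries, while their fitted log2 fold changes stayed between 0.80 and 1.11 and between 0.89 and 1.14. Without the Col-0 RNA library nrpd1-3 had 3 genes higher and 8 lower, against 6.75% and 8.62% of all genes, and nrpe1-11 had 5 higher and 2 lower, against 9.03% and 13.5%. Without the Col-0 NRO library the median fitted log2 fold change of the 41 genes was -0.01 in nrpd1-3 and 0.34 in nrpe1-11. Over all genes these medians were 0.03 and 0.01.

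The same fit compared nascent with steady-state RNA over the 3 genotypes. It called 3 of 41 genes higher in NRO and 6 lower, against 16.7% and 9.88% of all genes. Bead capture is described for the RNA libraries too, and its part in this contrast was not tested. LHCB2.3 and LHCB2.1 were higher in NRO than in RNA by log2 fold changes of 1.28 ± 0.300 (adjusted p = 0.000216) and 1.15 ± 0.286 (adjusted p = 0.000494), and PSAD2 by 0.75 ± 0.256 (adjusted p = 0.0170). Of the 6 lower genes, 4 were photosystem II subunits: PSBS at -1.04 ± 0.263 (adjusted p = 0.000684), PSBR at -0.81 ± 0.248 (adjusted p = 0.00678), PSBO1 at -0.78 ± 0.280 (adjusted p = 0.0237) and PSBY at -0.70 ± 0.242 (adjusted p = 0.0177). The others were the photosystem I genes PSAE2 at -0.83 ± 0.266 (adjusted p = 0.00956) and PSAH1 at -0.71 ± 0.255 (adjusted p = 0.0239). DESeq2 called 2 higher and 4 lower, against 8.82% and 5.41% of all genes. PSAD2, PSAE2, PSAH1 and PSBY lost their calls there, with DESeq2 adjusted p of 0.0850, 0.0965, 0.177 and 0.149, and LHCB5 gained 1 (DESeq2 adjusted p = 0.0275). LHCA5 at -0.92 ± 0.453 lay lower than most of these but was not called (adjusted p = 0.122). The median over the 41 genes was -0.01, against 0.19 over all genes. Within the genotypes, the log2 ratio of NRO to RNA of LHCB2.3 was 0.76 in Col-0, 1.49 in nrpd1-3 and 1.58 in nrpe1-11, and that of PSBS was -0.32, -0.82 and -1.71. Both differences were thus smallest in Col-0. Leaving out single libraries moved the calls between 0 and 5 higher and between 0 and 16 lower. The upper counts of 5 and 16 came without the Col-0 NRO library, against 16.7% of all genes higher and 10.8% lower. Without the Col-0 RNA library 4 were higher and 16 lower, against 15.8% and 11.6% of all genes. Without either nrpe1-11 library 0 genes were called in either direction, and without either nrpd1-3 library 0 were higher and 1 was lower. Of all genes, 12.3% were higher and 10.4% lower without the nrpe1-11 NRO library, and 8.93% and 4.88% without its RNA library. For nrpd1-3 these shares were 11.1% and 9.9% without the NRO library, and 7.84% and 4.16% without the RNA library.

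**Figure D5:**
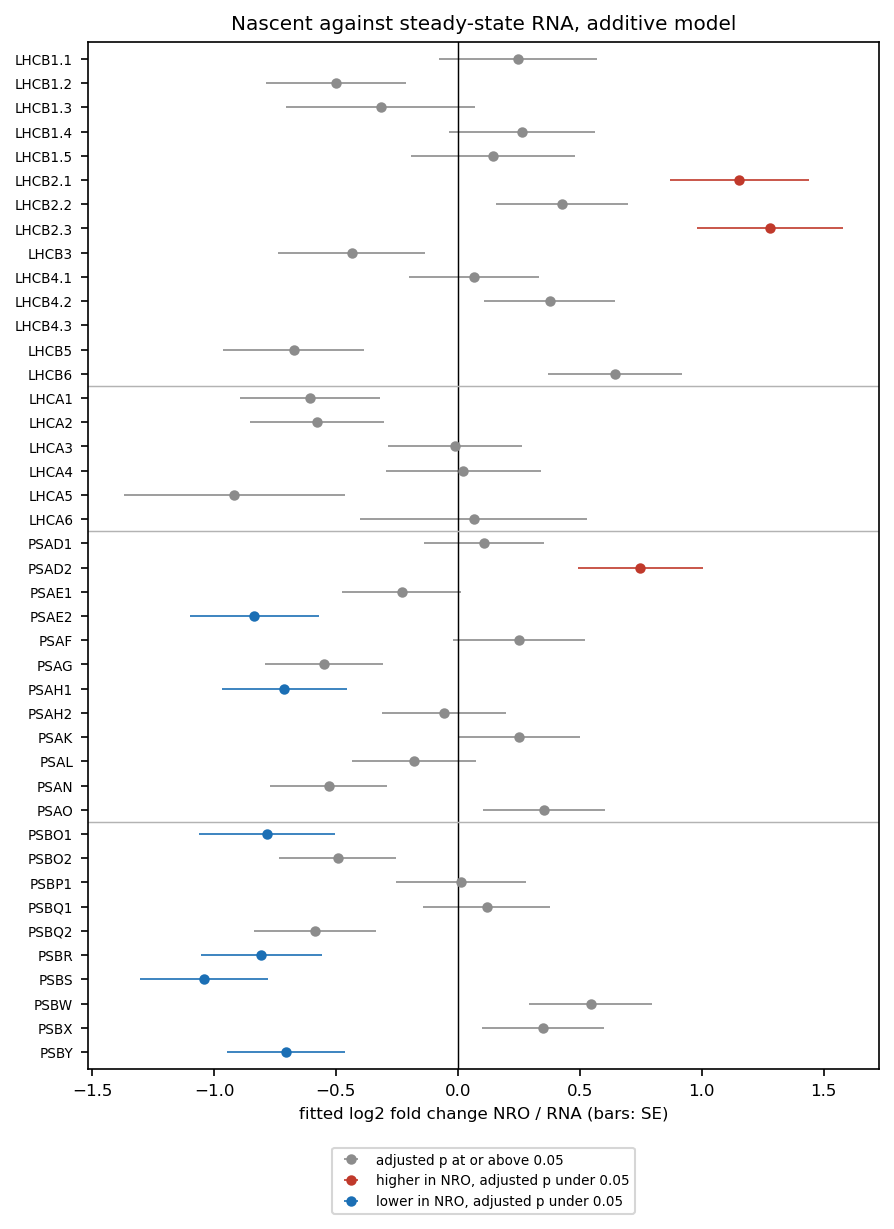
Fitted log2 fold change of NRO over RNA for each of 41 genes in the additive model over 6 libraries, with bars of 1 SE. The 3 red genes, LHCB2.1, LHCB2.3 and PSAD2, and the 6 blue genes, 4 of them photosystem II subunits, passed an adjusted p of 0.05 in edgeR's quasi-likelihood test; PSAD2, PSAE2, PSAH1 and PSBY did not in DESeq2.

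Other genes of photosynthesis and its regulation were read from fixed lists in the same fit, with edgeR's adjusted p. The regulators of light response and chloroplast development had 2 of 13 genes higher and 0 lower in nrpe1-11 against Col-0, with a median log2 fold change of 0.62. GLK2, a transcription factor that activates antenna and chlorophyll synthesis genes, stood at 18.9, 27.8 and 59.5 CPM in NRO and at 22.2, 18.9 and 76.3 CPM in RNA, the latter from 12, 9 and 40 counts. It rose in nrpe1-11 by 1.59 ± 0.313 against Col-0 (adjusted p = 1.01e-05) and was higher than in nrpd1-3 by 1.24 ± 0.277 (adjusted p = 0.00181). PIF1, which restrains chlorophyll synthesis in the dark, stood at 15.4, 36.8 and 50.3 CPM in NRO and at 20.4, 44.0 and 74.4 CPM in RNA. It rose in both mutants, by 1.17 ± 0.328 in nrpd1-3 (adjusted p = 0.00776), as the only 1 of the 13 called there, and by 1.65 ± 0.320 in nrpe1-11 (adjusted p = 7.47e-06). Their part in the levels of the antenna genes was not tested.

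Of 16 electron transport and ATP synthase genes 0 were called in either mutant against Col-0, while at an unadjusted p under 0.05 nrpd1-3 had 0 higher and 5 lower and nrpe1-11 had 1 higher and 2 lower, with medians of -0.07 and -0.06. Of 20 assembly and repair genes 0 were called in either, with 0 higher and 3 lower in nrpd1-3 and 0 in nrpe1-11 at an unadjusted p under 0.05, and medians of -0.29 and 0.05. The repair gene THF1 was higher in nrpe1-11 than in nrpd1-3, by 1.04 ± 0.297 (adjusted p = 0.0297). Of 12 other thylakoid proteins CURT1A, which bends thylakoid membranes, fell in nrpd1-3 by 1.03 on the log2 scale (adjusted p = 0.00912), and 0 were called in nrpe1-11, by adjusted or unadjusted p. Of 9 clock genes 0 were called in nrpd1-3, with 2 higher and 2 lower at an unadjusted p under 0.05, and TOC1, an evening component of the clock, fell in nrpe1-11 by 1.23 on the log2 scale (adjusted p = 0.000422). The photosynthetic cell markers had 3 of 8 genes lower in nrpd1-3, among them RBCS3B at -1.77 ± 0.308 (adjusted p = 1.11e-06) and RBCS1A at -1.25 ± 0.374 (adjusted p = 0.0146), and RBCS3B lower in nrpe1-11 at -0.89 ± 0.295 (adjusted p = 0.0178). In NRO of nrpd1-3 all 8 had intervals below 0, with a median log2 ratio of -1.10. Their medians in the fit were -0.76 and -0.41, against -0.16 and 0.14 for the 41 photosystem and antenna genes. The part of these cell markers in the results above was not tested.

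Among markers of other cell types, calls went in both directions. In nrpd1-3 the epidermis genes KCS6 and LTP1 were at 1.04 ± 0.305 (adjusted p = 0.0122) and -1.197 ± 0.322 (adjusted p = 0.00487). SHR, listed here among the root markers, was at 3.57 ± 1.17 (adjusted p = 0.0308) from NRO counts of 1, 52 and 41 and RNA counts of 0, 1 and 1. In nrpe1-11 the epidermis had 2 of 6 genes higher and 1 lower, from ATML1 at 1.197 ± 0.362 (adjusted p = 0.00823) to PDF1 at -1.35 ± 0.426 (adjusted p = 0.0119), and the guard cell gene KAT1 was at 2.82 ± 0.974 (adjusted p = 0.0250) from NRO counts of 2, 26 and 69 and RNA counts of 0, 2 and 0. Of the 2 vascular genes tested 0 were called in either mutant, by adjusted or unadjusted p. In NRO against RNA, 7 of 8 photosynthetic cell markers, 4 of 9 clock genes and 4 of 13 regulators were lower in NRO and 0 were higher. Electron transport had 5 of 16 lower and 1 higher there, from FNR2 at -1.92 ± 0.237 (adjusted p = 5.05e-14) to PETE1, and assembly had 4 of 20 lower and 1 higher. Of the other thylakoid proteins 2 of 12 were lower and 1 higher, and 1 epidermis and 1 vascular marker were lower.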

How the data were processed

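Leaf nuclei of Col-0, nrpd1-3 and nrpe1-11 plants gave 1 NRO and 1 RNA library each. The authors deposited raw counts per gene; per the submitters' processing notes, reads were trimmed with Trimmomatic 0.33, aligned to TAIR10 with TopHat2 2.1.0 and counted with HTSeq. The HTSeq version, strand setting and annotation release are not given in the sources used here. The 5 summary lines of each file were kept out of library sizes and tests. From these counts, edgeR 4.0.16 (R 4.3.3) gave TMM-scaled CPM. Log2 ratios used a prior count of 2, genes with at least 20 counts in 1 library, and exact conditional binomial 95% intervals, which cover counting error only. The additive model (assay and genotype, genes with at least 20 counts in 2 libraries) left 2 residual degrees of freedom, and a Benjamini-Hochberg adjusted p under 0.05 was called. DESeq2 1.42.0 and limma 3.58.1 served as alternatives. The labels do not say whether the libraries came from separate plants. The genes and gene lists were chosen with earlier results of these data known. Genes were named if they met the 2-fold size rule, were among the 3 highest or 3 lowest in a fitted contrast, fell under the filter, or belonged to a paralog set whose odds ratio was at least 1.5 in size with an interval excluding 1. LHCB3, LHCA2, LHCA3, LHCA4, PSAF, PSAK, PSBP1 and PSBR fall outside this rule and were added after their values were seen. The other lists are given by counts, medians and their highest and lowest called genes. RefSeq's table for TAIR10.1 supplied symbols, gene lengths and neighbours, and all 42 loci matched. Per the labels' protocols, bead capture is also described for the RNA libraries. The 3 ChIP samples, promoter motifs and protein sequences were not analysed here. The fits were tested on simulated counts that held no difference between assays. That test therefore does not cover the spread between assays in these data.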

Additional observations from a re-analysis of the deposited data

Results flagged for a closer look

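In nrpe1-11 against Col-0, 5 genes had counting intervals on opposite sides of 0 in the assays, lower in NRO and higher in RNA. The difference between the assays was not tested, because each group had 1 library. The share of all genes with intervals on opposite sides is not given, so these 5 are not set against a background. The log2 ratio was -0.46 in NRO and 0.27 in RNA for LHCB1.2, and -0.26 and 0.34 for LHCB4.1. For PSBO1 it was -0.17 and 0.74. The widest gaps were those of PSBQ1, at -0.77 in NRO and 1.47 in RNA, and of PSBS, at -0.61 and 0.83, and both rested on few RNA counts. The opposite directions depended on the scaling and the count filter. On other scales, 0 genes showed them when libraries were scaled by their totals and 4 with median-of-ratios size factors. Without the count filter 3 genes did, and of the 5 named here PSBQ1 was the only 1 among them.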

How the results depend on the processing

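Scaling by library totals moved the most values. The pooled log2 ratio to Col-0 in nrpd1-3 reversed, to 0.37 in NRO and 0.38 in RNA; in nrpe1-11 it was 0.85 and 0.77, and between the mutants 0.49 and 0.39. The size rule then gave 5 genes higher and 0 lower in NRO and 7 higher in RNA of nrpd1-3, 13 higher in NRO and 21 in RNA of nrpe1-11, and 1 higher in RNA between the mutants. Of all genes, 23.9% were higher in NRO and 28.4% in RNA of nrpd1-3, 35.1% and 27.1% in nrpe1-11, and 2.82% in RNA between the mutants. By the interval, 25 were higher and 4 lower in NRO and 25 and 0 in RNA of nrpd1-3, and 37 and 0 in both assays of nrpe1-11. The share of all genes by interval is not given under library totals. The model then called 4 genes higher in nrpd1-3, 24 higher in nrpe1-11, and 5 higher and 1 lower in NRO against RNA, where 16.2%, 30.0%, 21.5% and 5.34% of all genes were called. Median-of-ratios size factors gave pooled NRO ratios of -0.18 and 0.0906. Without the count filter, the size rule gave 1 lower in NRO of nrpe1-11. In RNA it gave 0 higher in nrpd1-3, 2 in nrpe1-11 and 2 between the mutants. The interval gave 11 lower in RNA of nrpd1-3 and 3 in nrpe1-11. For the size rule and the interval, shares of all genes without the filter are not given. The model called 0 higher in nrpe1-11 and 2 lower in NRO against RNA, against 3.98% and 4.35% of all genes. Without additive terms, and in limma with each gene's own spread, 0 genes were called in nrpe1-11 and 0 in either direction in NRO against RNA. Of all 14530 genes limma called 0 in every contrast, and the fit without additive terms called 0 in the genotype contrasts. Those counts therefore say nothing particular to the 42 genes. In NRO against RNA the fit without additive terms called 4.96% of all genes higher and 2.31% lower, beside its 0 above. Leaving out single libraries gave 0 to 3 higher and 0 to 8 lower in nrpd1-3, 0 to 5 higher and 0 to 2 lower in nrpe1-11, 0 to 5 higher and 0 to 16 lower in NRO against RNA, and 0 to 1 higher between the mutants. The shares of all genes called in NRO against RNA without each library are given above. As a share of uniquely aligned reads, the 42 genes took 0.843%, 1.19% and 1.67% in NRO and 0.696%, 0.931% and 1.23% in RNA of Col-0, nrpd1-3 and nrpe1-11. The cause of these shifts was not tested. Between the mutants the interval counts were 35 to 38 higher in NRO and 22 to 24 in RNA, with 0 lower, under every scaling, filter and prior count tried. Shares of all genes by interval are given above for the main TMM setting only. No paired analysis was possible because no group has replicate numbers to pair, and assay is already a term of the additive model. The search for promoter motifs was not run. Depth also limits the RNA values of subunit genes such as PSBQ1 and PSBS, with under 50 counts in each library.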
